A study of Mus musculus with 4 samples.

Results

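The guanylate binding proteins (GBPs) were followed across progenitors and T lineage cells of C57BL/6 mice. The members are the genes with a symbol of the form Gbp and a number that had a probe set (the group of array probes summarised into 1 value) annotated to them alone. For a gene with several such probe sets, the one used would be chosen by the highest mean over the 4 arrays, but each member had only 1. This gave 8 of 19938 named genes: Gbp5, Gbp7, Gbp3 and Gbp2b in the cluster on chromosome 3, and Gbp8, Gbp9, Gbp4 and Gbp11 in the cluster on chromosome 5. Another 3 family genes, Gbp2, Gbp6 and Gbp10, occurred only on probe sets annotated to several genes and are not counted as members.

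Pooled wild-type LMPPs, lymphoid-primed multipotent progenitors of the bone marrow, were sorted as Lineage marker-Sca+kit+Flt3high. They gave 1 array after 48 hours in the transduction medium with IL-3, IL-6, SCF, Flt3 ligand and Polybrene. LMPPs carrying the Tcf1-VEX retrovirus, which expresses the T cell transcription factor Tcf1, were cultured with OP9 stroma, which carries no added Notch ligand, and gave 2 arrays labelled as biological replicates (Tcf1 cells). LMPPs carrying the empty VEX vector were grown on OP9 with the Notch ligand DL4 and gave 1 array (control cells). Both cultures received IL7 and Flt3 ligand and were sorted on day 10 as live CD45.2+ cells that had Thy1 and CD25 and lacked Mac1 and Gr1. Tcf1 cells and control cells thus differed in both vector and stroma, and their effects cannot be told apart.

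GBPs are large GTPases of the dynamin superfamily. Interferon gamma, in part through IRF1, and to a lesser degree type I interferons induce most of them, and they are best known in macrophages, where they coat pathogen vacuoles and bacteria and help to start inflammasome signalling. Several carry a C-terminal lipid anchor, and they work beside a second family of interferon-inducible GTPases, the immunity-related GTPases (IRGs). Gbp2b is the gene formerly called Gbp1. Gbp11 is annotated as a transcribed pseudogene in RefSeq (GRCm38.p6).

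The GBP signal was lowest in LMPPs, intermediate in Tcf1 cells and highest in control cells. In 7 of 8 members both Tcf1 arrays lay above the LMPP array and below the control array, an order without overlap that 9.51% of all named genes showed. Gbp2b was the exception and read nearly the same on every array. The values are log2 RMA signals, on which 1 unit is a 2-fold difference, and signals of different genes are not compared with each other. In RNA from sorted populations, a lower share of expressing cells and less RNA per cell cannot be told apart.

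**Figure D1:**
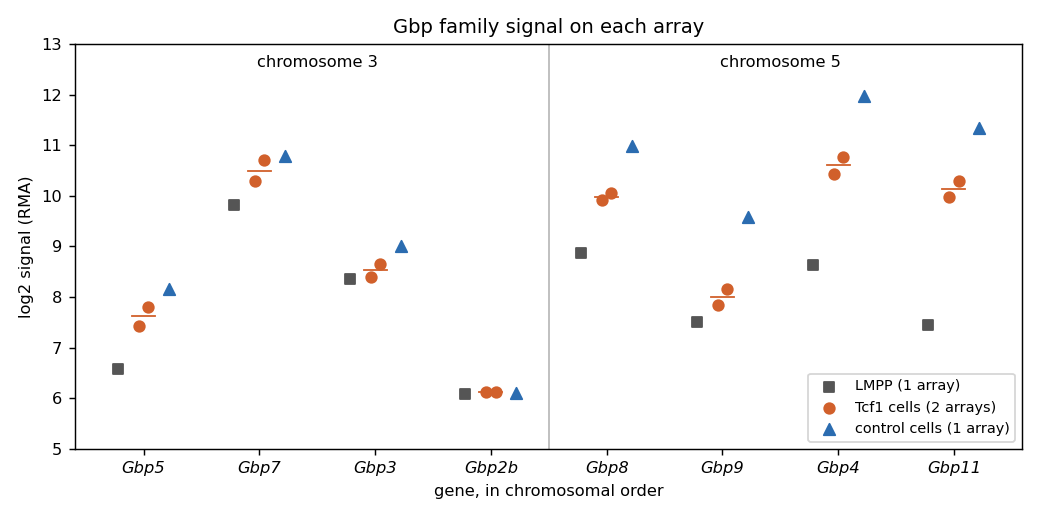
Log2 signal of the 8 Gbp genes (x axis, in chromosomal order within the chromosome 3 and chromosome 5 clusters) on the LMPP array (square), the 2 Tcf1 arrays (circles, with a line at their mean) and the control array (triangle). The order LMPP, Tcf1, control holds without overlap for every gene but Gbp2b, which stayed between 6.08 and 6.12.

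On chromosome 5, Gbp11 had the widest range, from 7.44 in LMPPs through 9.97 and 10.29 in Tcf1 replicates 1 and 2 to 11.35 in control cells. That is a 6.44-fold rise from LMPPs to Tcf1 cells and a 15.03-fold difference between LMPPs and control cells. Gbp4, an interferon-induced family member, read 8.64 in LMPPs, 10.44 and 10.77 in Tcf1 cells and 11.96 in control cells. Its groups were well apart, with Tcf1 cells 3.91-fold above LMPPs and control cells 2.57-fold above Tcf1 cells. Gbp8 read 8.88, 9.91 and 10.05, and 10.99 in the same order, so that Tcf1 cells lay near the middle of the log2 range. Gbp9 read 7.50 in LMPPs, 7.85 and 8.17 in Tcf1 cells and 9.58 in control cells. For Gbp9 the Tcf1 arrays were close to the LMPP array and the control array stood apart from all the others.

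On chromosome 3, Gbp5, which has been linked to NLRP3 inflammasome assembly, read 6.57 in LMPPs, 7.43 and 7.80 in Tcf1 cells and 8.17 in control cells. Gbp7, linked to the phagocyte oxidase, read 9.81 in LMPPs, 10.29 and 10.71 in Tcf1 cells and 10.79 in control cells. The second Tcf1 array was thus 0.09 below the control array, less than the 0.42 between the Tcf1 replicates. Gbp3 read 8.35, 8.40 and 8.65, and 9.01, with the first Tcf1 array only 0.05 above the LMPP array. Gbp2b stayed between 6.08 and 6.12, at percentile 24.1 of all genes on the LMPP array and 24.9 on the control array. At this low signal a transcript near background cannot be distinguished from none, since no detection calls were used here.

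The stretches of 250 bases before the RefSeq transcript start (GRCm38.p6, plus strand) are shown for the 4 chromosome 3 members, because 3 of them share the graded pattern and Gbp2b does not. They lie at chr3:142496684-142496933 (Gbp5), chr3:142530086-142530335 (Gbp7), chr3:142559794-142560043 (Gbp3, the first of its annotated starts) and chr3:142594597-142594846 (Gbp2b). The chromosome 5 genes are named only. Capitals mark 2 motifs searched on both strands, the ISRE-like motif (GAAA, any 2 bases, GAAA, or TTTC, any 2 bases, TTTC on the other strand), after the interferon-stimulated response element, and the GAS-like motif (TTC, any 3 bases, GAA, which reads the same on both strands), after the gamma-activated site.
Gbp5: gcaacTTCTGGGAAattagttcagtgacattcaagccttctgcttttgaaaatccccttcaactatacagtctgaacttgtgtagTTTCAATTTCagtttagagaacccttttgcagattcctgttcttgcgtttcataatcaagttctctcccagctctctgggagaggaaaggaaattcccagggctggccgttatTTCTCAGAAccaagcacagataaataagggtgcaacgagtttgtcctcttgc
Gbp7: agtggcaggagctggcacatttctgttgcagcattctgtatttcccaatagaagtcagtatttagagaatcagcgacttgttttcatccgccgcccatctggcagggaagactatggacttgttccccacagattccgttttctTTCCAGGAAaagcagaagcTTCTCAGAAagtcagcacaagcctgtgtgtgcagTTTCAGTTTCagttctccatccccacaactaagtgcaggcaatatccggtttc
Gbp3: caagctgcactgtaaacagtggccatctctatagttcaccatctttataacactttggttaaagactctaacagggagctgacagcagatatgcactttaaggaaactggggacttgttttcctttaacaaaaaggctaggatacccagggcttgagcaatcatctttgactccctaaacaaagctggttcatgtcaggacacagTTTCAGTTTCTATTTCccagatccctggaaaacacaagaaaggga
Gbp2b: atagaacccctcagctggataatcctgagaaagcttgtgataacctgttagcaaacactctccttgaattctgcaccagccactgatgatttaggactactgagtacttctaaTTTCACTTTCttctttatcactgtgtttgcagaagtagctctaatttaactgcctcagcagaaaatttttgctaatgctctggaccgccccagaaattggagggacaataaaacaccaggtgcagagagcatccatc
Each of the 4 stretches held an ISRE-like match, as did that of Gbp2 (bases -59 to -50). Among 32851 RefSeq stretches of the same length 2.98% held one. Counted from -1 at the last base before the start, the match spanned -53 to -44 in Gbp7 and -165 to -156 in Gbp5. In Gbp3 2 matches overlapped, at -45 to -36 and -39 to -30, and in Gbp2b the match spanned -137 to -128. GAS-like matches, found in 7.02% of all stretches, occurred at 2 places each before Gbp5 and Gbp7 and did not occur before Gbp3 or Gbp2b, and none overlapped an ISRE-like match. The second annotated start of Gbp3 had neither motif. The matches are letters in a window and were not tested as binding sites, and Gbp2b, whose signal was flat, held one as well.

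**Figure D2:**
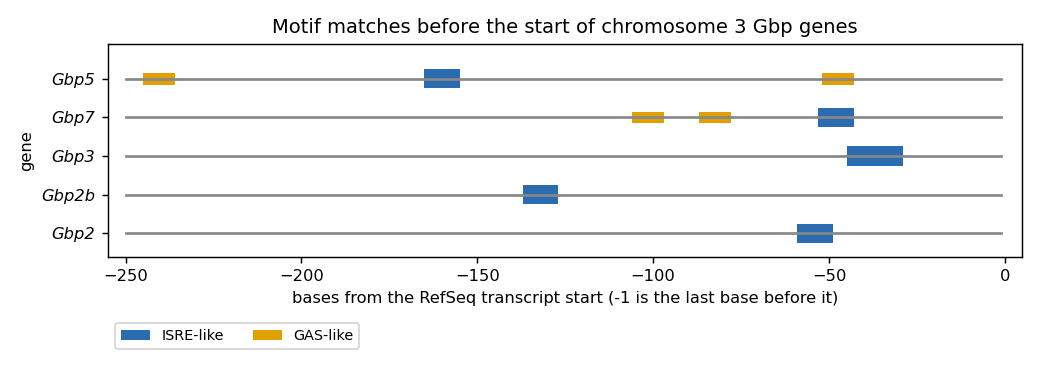
Positions of ISRE-like (blue) and GAS-like (yellow) matches in the 250 bases before the RefSeq transcript start of the 5 chromosome 3 Gbp genes (x axis in bases from the start). All 5 lines carry an ISRE-like match, and those of Gbp5 and Gbp7 also carry 2 GAS-like matches each.

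The first comparison set Tcf1 cells against the pooled LMPPs. Besides Tcf1, the groups differed in stroma, cytokines, time in culture and sort gate, and the effects cannot be told apart. Gbp11, Gbp4, Gbp8 and Gbp5 rose and no member fell, so 4 of 8 passed upward, against 1.75% of all genes, and 0 of 8 downward, against 1.31% (limma; 6 members had an unadjusted p under 0.05, all upward, as did 5.33% of all genes). In log2 signal Gbp11 rose by 2.69, with an SE of 0.19 (adjusted p = 0.0011, limma), to 10.13 ± 0.23 (SD, n = 2). Gbp4 rose by 1.97 (SE 0.19, adjusted p = 0.00341, limma) and Gbp8 by 1.10 (SE 0.17, adjusted p = 0.0188, limma). Gbp5 rose by 1.04 (SE 0.20) and only just passed (adjusted p = 0.0468, limma). Gbp7 (0.69, adjusted p = 0.181, limma), Gbp9 (0.51, adjusted p = 0.282, limma) and Gbp3 (0.18, adjusted p = 0.815, limma) did not pass, although both Tcf1 arrays lay above the LMPP array for each. The interval for Gbp3, from -0.25 to 0.61, includes differences of either sign. The member median was 0.86, beside 0.00468 over all genes.

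All spread in this test came from the 2 Tcf1 arrays (residual degrees of freedom, 1), with the single arrays taken to vary alike, and it called no gene when all 35399 probe sets were tested together. The family was proposed with results of these arrays known, so its p-values are no independent support. Of all genes that passed, 57.2% were higher in Tcf1 cells, or 41.7% after median centring, under which the same number of members, 4, passed.

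The second comparison set Tcf1 cells against the T lineage cells grown with DL4. All 4 chromosome 5 members, Gbp9, Gbp4, Gbp11 and Gbp8, were lower in Tcf1 cells, and none was higher. That is 4 of 8 members, against 2.49% of all genes lower and 1.9% higher (limma; 6 members had an unadjusted p under 0.05, all downward, as did 8.37% of all genes). Gbp9 differed by -1.58 (SE 0.19, adjusted p = 0.00626, limma), Gbp4 by -1.36 (SE 0.19, adjusted p = 0.012, limma), Gbp11 by -1.22 (SE 0.19, adjusted p = 0.0168, limma) and Gbp8 by -1.01 (SE 0.17, adjusted p = 0.0204, limma). None of the chromosome 3 members passed (limma), though Gbp5 and Gbp3 had an unadjusted p under 0.05. Gbp5 differed by -0.55 (interval -1.03 to -0.07), Gbp3 by -0.48 (-0.91 to -0.06), Gbp7 by -0.30 (-0.80 to 0.21) and Gbp2b by 0.01 (-0.37 to 0.39). These intervals are 95% and unadjusted. The member median was -0.78, beside 0.02 over all genes. This comparison shares the Tcf1 arrays with the one above, so a low Tcf1 reading moves both, and whether the clusters differ from each other was not tested.

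**Figure D3:**
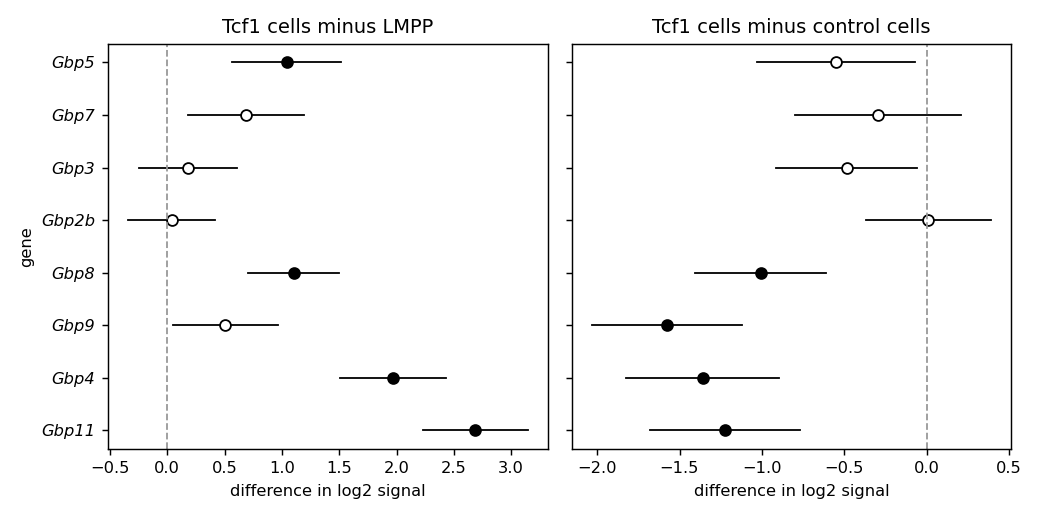
Difference in log2 signal (x axis) for each Gbp gene (y axis), Tcf1 cells minus LMPP at left and Tcf1 cells minus control at right, as the limma estimate with its unadjusted 95% interval. Filled circles passed at an adjusted p under 0.05 over all genes: Gbp5, Gbp8, Gbp4 and Gbp11 at left, and Gbp8, Gbp9, Gbp4 and Gbp11 at right.

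Control cells were set against LMPPs, 1 array against 1, without a test. Of the members, 5 were at least 2-fold higher in control cells (Gbp11, Gbp4, Gbp8, Gbp9 and Gbp5), against 3.17% of all genes. The differences were 3.91 for Gbp11, 3.33 for Gbp4, 2.11 for Gbp8, 2.09 for Gbp9, 1.59 for Gbp5, 0.98 for Gbp7, 0.66 for Gbp3 and 0.03 for Gbp2b. Expressed as a share of that log2 distance, Tcf1 cells stood 69.8% of the way from LMPPs to control cells for Gbp7, 68.7% for Gbp11, 65.4% for Gbp5, 59.1% for Gbp4 and 52.3% for Gbp8. The share was 27.0% for Gbp3 and 24.4% for Gbp9. These shares moved with the Tcf1 array used: replicates 1 and 2 alone gave 8.2% and 45.7% for Gbp3, 16.7% and 32% for Gbp9, 48.6% and 90.9% for Gbp7, and 49% and 55.6% for Gbp8. On both arrays Gbp11, Gbp4 and Gbp5 sat nearer to control cells and Gbp9 and Gbp3 nearer to LMPPs, while Gbp7 and Gbp8 lay on different sides of the midpoint. Neither end of the scale has a replicate.

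**Figure D4:**
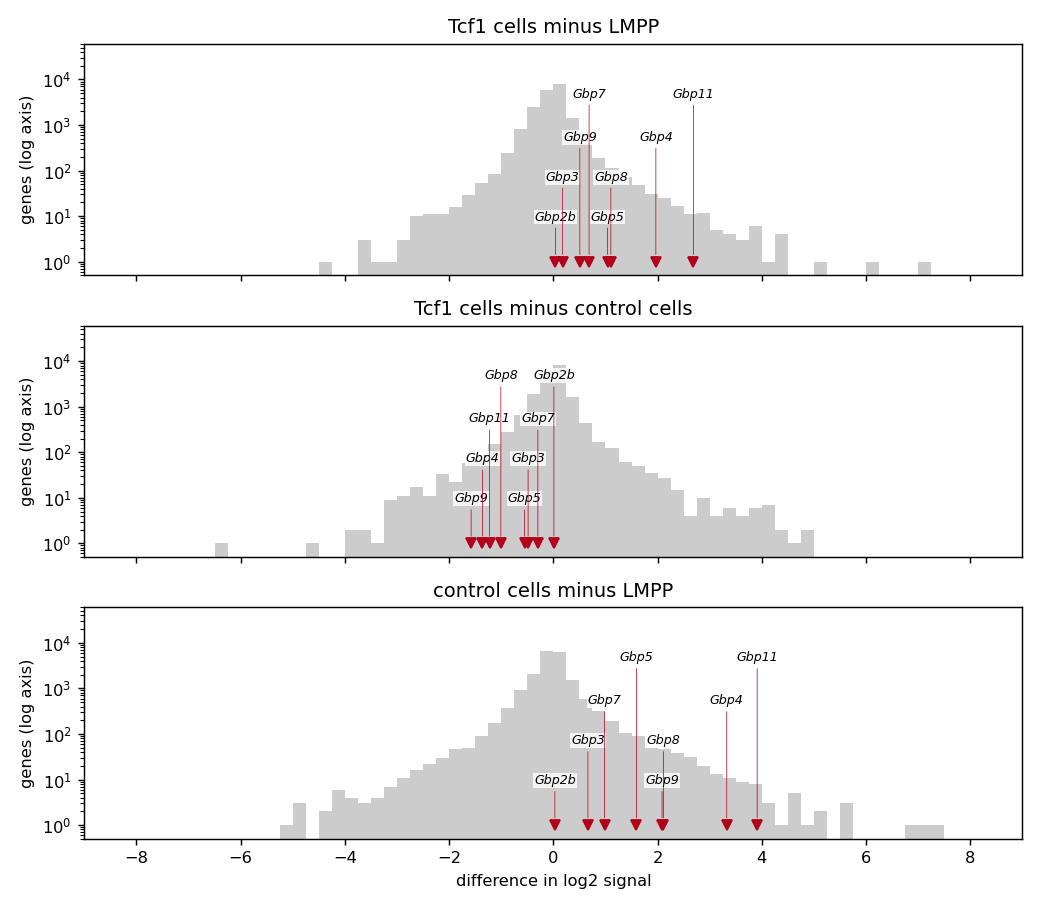
Number of genes (y axis, log scale) by difference in log2 signal (x axis, bins of 0.25) over 19938 genes, for the 3 comparisons, with the 8 Gbp genes marked by triangles. Apart from Gbp2b, which is near 0 and turns sign with the scaling, members lie right of 0 in the top and bottom panels and left of 0 in the middle one.

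The probe sets shared between family genes had the same order. The one annotated to both Gbp2 and Gbp2b read 6.87 in LMPPs, 8.11 and 8.63 in Tcf1 cells and 8.93 in control cells, but it cannot be assigned to either gene. The one annotated to 6 chromosome 5 genes (Gbp4, Gbp6, Gbp8, Gbp9, Gbp10 and Gbp11) read 8.22, then 10.73 and 10.87, then 11.91. Since chromosome 5 genes share a probe set here, the signals of Gbp4, Gbp8, Gbp9 and Gbp11 may also hold RNA of each other. Across the replicate pair, 7 of 8 members read higher in replicate 2, as did 67.9% of all genes, by up to 0.42 (Gbp7).

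Genes next to the clusters were measured too. On chromosome 3 these were Bmpr1b and Pdlim5 before Gbp5, and Kyat3 and Gtf2b after Gbp2. Kyat3, a kynurenine aminotransferase, fell from LMPPs to Tcf1 cells by 0.95 (adjusted p = 0.0326, limma), opposite to Gbp5, and the other 3 did not pass in either comparison. On chromosome 5, Zfp951, Abcg3, Lrrc8b and Lrrc8c did not pass in either comparison. Abcg3, a transporter gene beside Gbp8, was the only one of these 8 with the Gbp order, which 9.51% of all genes showed. It read 6.29 in LMPPs, 6.49 and 6.61 in Tcf1 cells and 7.22 in control cells.

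The genes with the most similar profiles were found as those at the smallest Euclidean distance over the 4 arrays, after each gene's mean was subtracted. For Gbp11 the nearest was Gata3, a T lineage transcription factor, at a distance of 0.13, with 7.58 in LMPPs, 9.95 and 10.29 in Tcf1 cells and 11.42 in control cells. Prkca, Ccr4, Nck2 and Strip2 followed, at 0.25 to 0.31. For Gbp4 the nearest were Ets1, a transcription factor of lymphocytes (0.05), and Cd247, the zeta chain of the T cell receptor (0.26). Gbp4 itself was 0.60 from Gbp11, and 10 genes lay nearer to Gbp11 than that. Nearest to Gbp8 were Slc9a9 and Itga6, to Gbp9 Gab3 and Phc3, to Gbp5 Cyth1 and Nckap1, to Gbp7 AW549877 and Lpp, and to Gbp3 Zbtb20 and Mcts2, all within 0.11. Genes near the flat Gbp2b, such as Cdhr3, were equally flat. With 4 arrays, closeness describes these arrays only.

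Of the other interferon-inducible GTPases, 1 of 6 measured, Gm12185, followed the Gbp order, which 9.51% of all genes showed. Gm12185 was nearly flat, at 6.08 in LMPPs, 6.15 on both Tcf1 arrays and 6.26 in control cells, and passed in neither comparison. Of 14 listed, 6 had a probe set of their own; Igtp, Irgm2, Ifi47 and Tgtp1 were among the others. Irgm1, an IRG that regulates the other IRGs, rose by 1.11 from LMPPs to Tcf1 cells (8.90 in LMPPs, 10.14 and 9.87 in Tcf1 cells, 9.87 in control cells). Mx2, an antiviral dynamin-like GTPase, rose by 1.05 and Gm4951 by 1.35, while Mx1 (0.85), Iigp1 (0.28) and Gm12185 (0.07) did not pass. Thus 3 of 6 rose, against 1.75% of all genes. Against control cells Mx1 and Mx2 were higher in Tcf1 cells, by 1.14 and 0.85. That is 2 of 6, against 1.9% of all genes, and none of the 6 was lower.

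Ligands, receptors and signal carriers were measured next. Of 11 interferons and interferon-inducing cytokines none passed upward against LMPPs (limma). An unadjusted p under 0.05 was found for 2, Il18 upward and Il12a downward (limma). Il12a, a chain of interleukin 12, fell by 1.32 and was higher in Tcf1 cells than in control cells by 1.69. Il18 read 5.53 in LMPPs, 6.22 and 6.93 in Tcf1 cells and 5.51 in control cells. It lay 1.04 above LMPPs and 1.06 above control cells without passing (adjusted p = 0.131 and 0.113, limma). Ifng, the gene of interferon gamma, read 6.62, 6.54 and 6.85, and 6.65, with no group apart. Of 12 genes of the interferon gamma receptor and its signalling, 3 rose, against 1.75% of all genes, and 1 fell, against 1.31%. The ligand-binding receptor chain Ifngr1 rose by 0.88 and followed the Gbp order (10.82, 11.67 and 11.73, 12.25). The feedback inhibitors Socs1 (1.15) and Socs3 (1.45) rose and also followed it. Thus 3 of the 12 had this order, as did 9.51% of all genes. Irf8 fell by 2.16. Irf1, the transcription factor needed for much of GBP induction, read 9.27 in LMPPs, 8.90 and 9.37 in Tcf1 cells and 10.25 in control cells, and was lower in Tcf1 cells than in control cells by 1.12 (-1.12, SE 0.22, adjusted p = 0.0425, limma). Ifngr2, the other receptor chain, was higher in Tcf1 cells than in control cells by 0.99. Of 8 type I interferon receptor and signalling genes, Irf7 (1.99) and Irf9 (1.04) rose, against 1.75% of all genes. None of the 8 passed against control cells, where 2 had an unadjusted p under 0.05 (limma). Ifnar1 and Stat2 followed the Gbp order, which 9.51% of all genes showed, without passing.

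Target genes of the interferons were measured as a pair of lists. Of 16 type I interferon targets 12 rose from LMPPs to Tcf1 cells, against 1.75% of all genes, and none fell, with a median of 1.39. The largest rises were those of Rtp4 (4.15), Oas2 (3.67), Oasl2 (3.12) and Ddx58 (2.88), the last an RNA sensor. Against control cells 5 were higher in Tcf1 cells, against 1.9% of all genes, and none lower, with a median of 0.69. The 5 were Oas2 (2.18), Usp18 (1.58), Ifit1 (1.28), Oas3 (1.10) and Ifit3 (0.91). Oas2, an antiviral sensor, read 6.82 in LMPPs, 10.82 and 10.16 in Tcf1 cells and 8.31 in control cells, so its peak was in Tcf1 cells where that of Gbp4 was in control cells. Of the 16, Ifit2 alone followed the Gbp order, which 9.51% of all genes showed. Of 16 interferon gamma targets none passed in either comparison (limma), while 4 had an unadjusted p under 0.05 against LMPPs and 4 against control cells. Psmb8, an immunoproteasome subunit, and Tap2 and Tapbp of antigen loading followed the Gbp order without passing. They are 3 of the 16, beside 9.51% of all genes with that order. The difference between these lists and the Gbp genes was not tested.

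**Figure D5:**
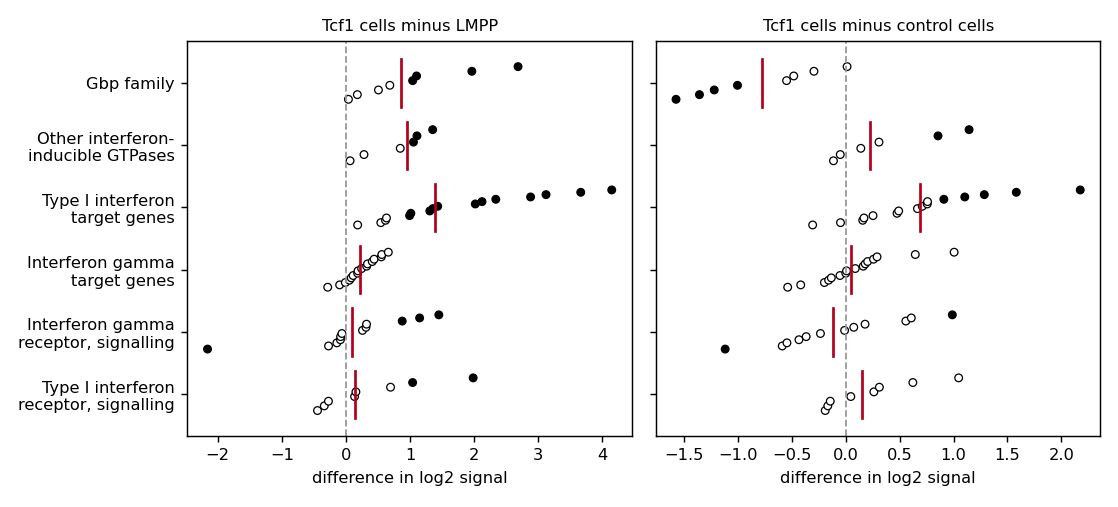
Difference in log2 signal (x axis), Tcf1 cells minus LMPP at left and Tcf1 cells minus control at right, for single genes (circles, filled where they passed over all genes) of the Gbp family and 5 interferon lists, with red bars at the medians. The Gbp median lies at -0.78 at right, and that of the type I interferon targets at 0.69.

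Of 8 inflammasome genes Casp4, the sensor of cytosolic lipopolysaccharide, rose by 1.07 and the others did not pass. Against LMPPs 5 had an unadjusted p under 0.05, all upward, as did 5.33% of all genes, and against control cells 2 (limma). Il1b lay 1.39 above LMPPs and 1.34 above control cells without passing (adjusted p = 0.0559 and 0.0501, limma). None of 6 prenylation enzymes, which add the lipid anchor of some GBPs, passed in either comparison (limma; 1 had an unadjusted p under 0.05 against LMPPs and 0 against control cells), nor did the 2 atlastins measured, which are related GTPases of the endoplasmic reticulum (0 and 0 at an unadjusted p under 0.05). Of 10 autophagy genes that help to place these GTPases on vacuoles, Atg7 was lower in Tcf1 cells than in control cells by 0.91 and no other gene passed.

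Cell type markers stood as follows beside these results. The 10 T lineage markers had a mean log2 level of 7.36 in LMPPs, 8.90 and 9.02 in Tcf1 cells and 10.85 in control cells. Of them, 8 followed the Gbp order, which 9.51% of all genes showed. The mean and the count include Thy1 and Il2ra, on which both cultures were sorted. Ptcra and Cd5 did not follow it, and Cd5 was highest in LMPPs (8.79, against 7.26 and 7.36 in Tcf1 cells and 8.31 in control cells). CD3 chains were low in Tcf1 cells, with Cd3e at 7.45 and 7.42 against 10.41 in control cells. The sorted Thy1 and Il2ra (CD25) were high in both cultures, at 12.38 or above, as the gate requires. The 14 macrophage markers were at 7.59 in LMPPs, 8.68 and 8.96 in Tcf1 cells and 6.69 in control cells. Of these, 6 rose from LMPPs to Tcf1 cells, against 1.75% of all genes, and none fell, with a median of 1.01. Against control cells 9 were higher in Tcf1 cells, against 1.9% of all genes, and none was lower. The Gbp genes that passed were higher than in LMPPs in the first comparison and lower than in control cells in the second. Adgre1 read 6.51 in control cells and 11.10 and 11.43 in Tcf1 cells. Of the complement chains, C1qb rose by 1.39 and was 2.24 above control cells, C1qc (1.12 and 1.06) did not pass, and C1qa stayed between 6.64 and 6.83. Mean dendritic cell marker levels were likewise lowest in control cells (6.71, against 8.45 and 8.95 in Tcf1 cells and 8.99 in LMPPs). Those of neutrophil markers were too (7.10, against 8.36 and 8.34, and 9.26). In Tcf1 cells 5 of 10 dendritic cell and 4 of 10 neutrophil markers were higher than in control cells, against 1.9% of all genes. The rest did not pass. From LMPPs to Tcf1 cells 6 neutrophil markers fell, against 1.31% of all genes, while Mmp8 rose by 2.53. Stromal markers were at 7.20, then 8.05 and 8.35, then 7.91. Of the 12, 4 rose from LMPPs to Tcf1 cells, against 1.75% of all genes: Timp3 (3.75), Thbs1 (3.12), Bgn (2.25) and Fn1 (1.90). Fn1 and Bgn were also higher than in control cells, by 1.80 and 1.52, Pdgfrb was lower by 1.63, and Col1a1 read 8.12 to 8.38 on all arrays. Of 8 NK markers, 2 rose from LMPPs to Tcf1 cells, Gzmb (2.18) and Il2rb (1.77), against 1.75% of all genes. Only Eomes fell, by 1.58, against 1.31% of all genes. Only Klrd1 was higher than in control cells, by 1.85, against 1.9% of all genes. Of 7 B lineage markers, Cd79b fell by 2.39 from LMPPs and was lower than in control cells by 1.53, and no other passed. Whether cells of these types were present among the Tcf1 cells was not tested, nor was their part in the Gbp signal of the Tcf1 arrays. The transduced gene, Tcf7, had no probe set of its own, so the vector labels could not be checked.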

How the data were processed

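RNA of 4 mouse samples was amplified with a whole-transcript kit and hybridised to Affymetrix arrays, per the labels' protocols. The authors deposited 1 log2 signal per probe set, made with RMA and Partek 6.5, per the submitters' processing notes, without stated parameters. The log base was taken from RMA and the range of 3.44 to 14.45, and the sources used here give no genome build. Of 35399 probe sets, 21789 had 1 gene symbol, 1621 several and 11989 none. The probe set with the highest mean was used for the 999 genes with several, which left 19938 genes, and no filter on dim genes was applied. Median signals of the arrays lay between 7.47 and 7.59 over these genes, and the number of arrays limits the precision.

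Group means were fitted over all named genes in R 4.3.3 (limma 3.58.1). Variances were moderated by empirical Bayes (1 residual and 5.78 prior degrees of freedom, prior SD 0.14). A Benjamini-Hochberg adjusted p below 0.05 counted as passing. The fit was tested on simulated data. The p-values rest only on the spread between the 2 Tcf1 arrays, which enters mostly through the prior taken over all genes. They hold little of a gene's own spread and none among LMPP or control samples. Control cells against LMPPs had no test. Named genes are all members, up to 4 genes of each list with the largest differences in either tested comparison, the nearest 5 genes to each member and the 2 genes on either side of each cluster. Other list members, such as Ifng and Col1a1, were named after their values were seen. Members and lists were chosen with earlier results of these data known. Lists were matched by symbol, with Ddx58 taken for Rigi and Wars for Wars1. Promoter stretches are from RefSeq, GRCm38.p6, and 5 of 11 Gbp genes matched.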

Additional observations from a re-analysis of the deposited data

How the results depend on the processing

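The 4 members higher than in LMPPs and the 4 lower than in control cells, out of 8, were the same genes after renewed quantile normalization, after median centring, with an intensity trend in the prior and with the mean of a gene's probe sets, and also with genes under the 25th percentile left out, which kept 7 members. Over genes above the median expression 6 members were left, without Gbp5, and 4 passed in each comparison, 3 of them shared against LMPPs, where Gbp7 was the fourth. There the adjusted p of Gbp11 against LMPPs was 1.1e-31 (limma), for the same difference that gave 0.0011 in the main fit. Such a value cannot come from 1 residual degree of freedom and rests on the prior of that setting. A 2-fold minimum in place of the test also gave 4 and 4. The counts were 0 and 0 with an unmoderated linear model, where 1 and 1 members had an unadjusted p under 0.05. They were 0 and 0 when all probe sets were tested together (limma), where 4 and 4 members had an unadjusted p under 0.05. In the first case the test has 1 degree of freedom, and the cause of the second was not tested. Over all genes, 610 passed against LMPPs, or 12 unmoderated, 0 over all probe sets and 936 to 1456 with a trend, a filter or median centring. Against control cells 874 passed, or 12, 0, 1437 (25th percentile) and 1646 (median centring). Gbp5 against LMPPs had an adjusted p between 0.00456 and 0.812 over its alternatives, and Gbp7 passed only above the median expression (adjusted p = 0.0202, limma, over a range of 0.0202 to 0.835). Gbp2b, near 0 in both comparisons, turned to -0.0326 against LMPPs and -0.0717 against control cells after renewed quantile normalization and to -0.0315 against control cells after median centring. With either Tcf1 replicate alone, a value with no test, Gbp11 stood 2.53 to 2.85 above LMPPs and 1.06 to 1.38 below control cells. No paired analysis was possible because only the Tcf1 group has more than 1 replicate. Signal over background was not available for any probe set, which limits Gbp2b most.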
